A study of Mus musculus with 9 samples.

Results

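The genes described here are the 10 mouse genes of the MHC class II antigen presentation pathway, taken by symbol from a list: the regulator Ciita, the chain genes H2-Aa, H2-Ab1 and H2-Eb1, the invariant chain gene Cd74, the peptide editor genes H2-DMa, H2-DMb1 and H2-DMb2, and the modulator genes H2-Oa and H2-Ob. They are 10 of the 55450 genes counted. RNA-seq of dissected substantia nigra, the midbrain region that holds dopaminergic neurons, gave 9 libraries in 3 groups of 3, with replicates lettered A, B and C.

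All mice were injected in the nigra with a lentiviral vector whose insert is switched on by Cre recombinase, and tissue was collected 5 weeks later. The control group (CTR) consisted of CX3CR1-CreERT2 mice given a vector for GFP, a fluorescent protein, in a destabilized form according to the methods. The CX3 group consisted of CX3CR1-CreERT2 mice given a Synuclein-expressing vector, and the DAT group of DAT-Cre mice given that vector. In CX3CR1-CreERT2 mice, Cre sits in the Cx3cr1 locus, which is active in microglia and other myeloid cells, and works after tamoxifen, which these mice received for 4 days. In DAT-Cre mice, Cre sits in the dopamine transporter locus (Slc6a3) and needs no tamoxifen. CTR and CX3 thus share the Cre line and tamoxifen and differ in the vector's insert. DAT and CTR differ in the Cre line, tamoxifen and the insert, and the effects of these cannot be told apart. The mice were males of 8 or 9 weeks at transduction, since both ages appear in the sources used here. Nothing in the sources used here says whether each library came from a separate mouse, so p-values measure the spread between these libraries, which may be technical.

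MHC class II molecules are heterodimers of an alpha and a beta chain that display peptides from endocytosed protein to CD4+ T cells. The invariant chain fills the groove of new dimers and guides them to endosomes, where H2-DM exchanges its remnant for other peptides and H2-O modulates H2-DM. Dendritic cells, B cells and macrophages carry class II constitutively or on activation, and in the brain it is low in resting microglia and induced by interferon-gamma, which acts through the master transactivator Ciita.

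The 8 H2 members lie on chromosome 17 between H2-Oa (34092340 to 34095234, plus strand) and H2-Eb1 (34305867 to 34316674, plus strand), in coordinates of GRCm38, the build also called mm10, with GENCODE M21 gene models. Ciita lies on chromosome 16 (10480059 to 10528418, plus strand). Ciita does not bind DNA itself but docks on factors that sit on the X and Y boxes of class II promoters. The RefSeq table of promoter windows (GRCm38.p6, 250 bases before to 50 after each start) held 7 of the 10 members, with no window for H2-Ab1, Cd74 or Ciita. The following 70-base stretches lie from 100 to 31 bases before the start and outside the annotated gene. They come from the genes of an alpha chain, a beta chain and an H2-O chain. Those of H2-Eb1 and H2-Ob hold matches to a core of both boxes, and that of H2-Aa to a Y box core alone. Capitals mark matches to an X1 box core, which is AG, any base, AAC, any 3 bases and TG, and to ATTGG, a Y box core, on either strand, so that CCAAT is ATTGG on the minus strand.

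H2-Aa: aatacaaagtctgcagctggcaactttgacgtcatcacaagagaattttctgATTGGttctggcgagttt

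H2-Eb1: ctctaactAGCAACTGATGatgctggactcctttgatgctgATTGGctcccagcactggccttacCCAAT

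H2-Ob: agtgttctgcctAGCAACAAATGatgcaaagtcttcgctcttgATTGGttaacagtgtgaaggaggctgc

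These stretches lie at chr17:34287854-34287923 (minus strand), chr17:34305767-34305836 (plus strand) and chr17:34238805-34238874 (plus strand). Searched on both strands, ATTGG was found in a window of all 7 members and in 37.4% of the 32851 windows of all genes. The X1 core was found in 3 of the 7, H2-Eb1, H2-Ob and H2-DMb1, and in 4.18% of all windows, and both motifs stood together in those 3 and in 1.57% of all windows. TTCNNNGAA, the core of the gamma-activated site bound by interferon-gamma-activated factors, was found in 1 of the 7, H2-DMb2, and in 8.30% of all windows. Within a member's window, matches to different motifs did not overlap. A match describes these letters and does not show binding, and a missing match does not show that a box is absent.

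Between 21592817 and 39475428 reads per library were counted in genes. The CTR libraries differed from each other by 1.48 to 1.86 times the variance expected from counting alone. The CX3 libraries differed by 2.66 to 7.12 times, and DAT B stood apart from DAT A and C, by 18.2 and 13.3 times against 2.35 times between A and C. Markers of dopaminergic neurons were present in every library, at a summed 351 to 598 CPM (gene counts scaled to a common library total, with edgeR's TMM factors). Summed over 4 choroid plexus markers, including the thyroxine carrier Ttr, the level was 27.9 to 30.3 CPM in CTR, 1448 to 1559 in CX3 and 844 to 1014 in DAT. Choroid plexus does not belong to the nigra. Its part in the results was not tested.

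All 10 class II genes were higher in CX3 than in CTR and lower in DAT than in CTR. Their summed level was 920 to 950 CPM in CTR, 1478 to 1608 in CX3 and 209 to 240 in DAT. As a share of all gene counts this was 0.0939% to 0.0972% in CTR, 0.155% to 0.171% in CX3 and 0.0193% to 0.0221% in DAT. In a bulk sample, fewer cells of a type and less RNA per cell cannot be told apart.

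**Figure D1:**
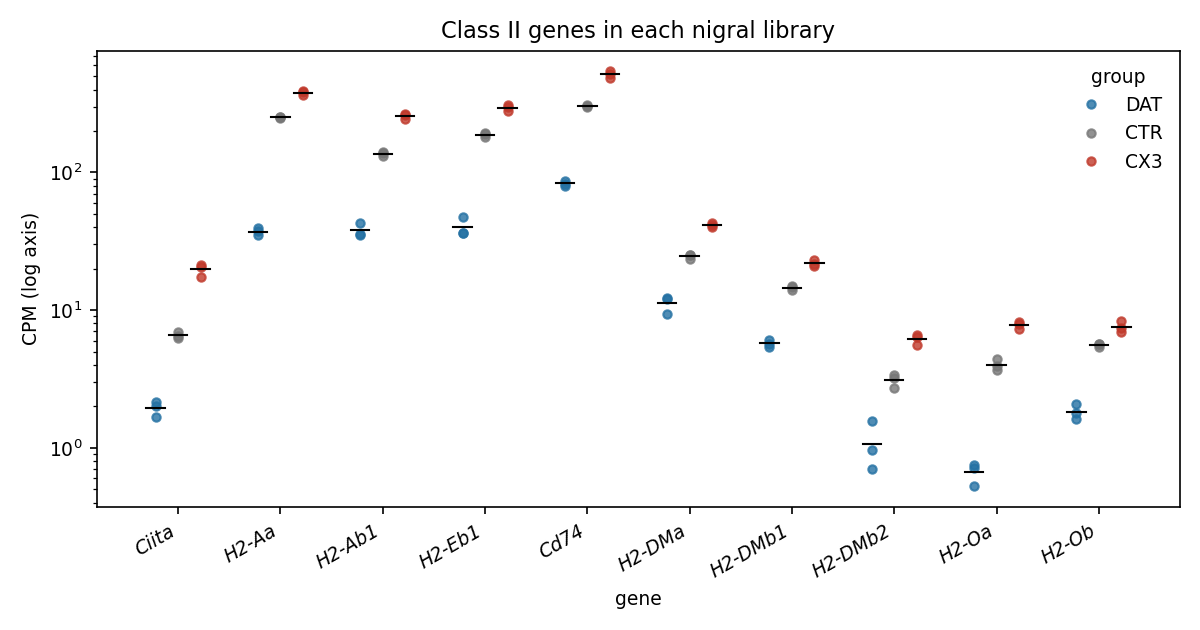
Level of each class II gene in each library, in CPM on a log axis, with genes along the x axis, points for libraries (3 per group) and bars for group means. For all 10 genes the DAT libraries are lowest, the CTR libraries lie between and the CX3 libraries are highest, with no overlap between groups.

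Ciita, the transactivator on which class II transcription depends, was counted at a low level. It stood at 6.90, 6.32 and 6.50 CPM in CTR A, B and C, at 17.5, 21.3 and 20.7 CPM in CX3 A, B and C, and at 2.14, 1.66 and 2.02 CPM in DAT A, B and C. The groups did not overlap, and each CX3 library was above every CTR library. Ciita was 3.02-fold higher in CX3 than in CTR (log2 fold change 1.59, SE 0.091, edgeR adjusted p = 1.66e-08) and lower in DAT than in CTR (log2 fold change −1.73, SE 0.131, edgeR adjusted p = 5.67e-08). The counts behind the DAT values were 78, 33 and 46 reads.

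H2-Aa encodes the alpha chain of the I-A molecule. Its level was 254, 253 and 250 CPM in CTR, 388, 385 and 366 in CX3 and 37.3, 39.2 and 35.0 in DAT, in the order A, B and C. The spread within a group was at most 5.67% of its mean, far under the gaps between groups. H2-Aa was 1.51-fold higher in CX3 (log2 fold change 0.59, SE 0.045, edgeR adjusted p = 3.17e-07) and 6.79-fold lower in DAT (log2 fold change −2.76, SE 0.050, edgeR adjusted p = 2.60e-14), both against CTR. H2-Ab1, its beta chain partner, stood at 141, 139 and 131 CPM in CTR, 264, 261 and 244 in CX3 and 35.3, 42.9 and 35.9 in DAT. Here the CX3 difference was wider, at log2 fold change 0.90 (SE 0.062, edgeR adjusted p = 1.18e-07), and the DAT difference narrower, at −1.85 (SE 0.068, edgeR adjusted p = 3.64e-11). H2-Eb1, the beta chain of the I-E molecule, stood at 192, 191 and 182 CPM in CTR, 308, 301 and 279 in CX3 and 36.1, 47.2 and 36.6 in DAT. DAT B was the highest DAT library for all 3 chains and still far below every CTR library. The H2-Eb1 log2 fold change was 0.65 in CX3 (SE 0.076, edgeR adjusted p = 2.10e-05) and −2.24 in DAT (SE 0.083, edgeR adjusted p = 4.32e-11).

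The alpha chain partner of H2-Eb1 is annotated as a pseudogene, H2-Ea-ps, which C57BL/6 mice do not express as protein. It had 4, 5 and 2 reads in CTR, 0, 1 and 0 in CX3 and 0 in each DAT library, and was too low to test. The neighbouring H2-Eb2, which is no member, stood at 1.30 ± 0.213 CPM in CTR, 1.12 ± 0.205 in CX3 and 0.721 ± 0.132 in DAT (SD, n = 3). Its log2 fold change of −0.21 in CX3 did not pass the test, and that of −0.88 in DAT did.

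Cd74, the invariant chain and the most abundant member per kilobase of unshared exon in every group, lies on chromosome 18 (60803848 to 60812652, plus strand). It stood at 301, 310 and 299 CPM in CTR, 541, 517 and 487 in CX3 and 82.8, 86.7 and 80.3 in DAT. CX3 was again the high group and DAT the low one, without overlap. The log2 fold change was 0.76 in CX3 (SE 0.046, edgeR adjusted p = 3.30e-08) and −1.87 in DAT (SE 0.049, edgeR adjusted p = 1.34e-12).

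H2-DM, the peptide editor, is a dimer of H2-DMa with a beta chain from H2-DMb1 or H2-DMb2. H2-DMa stood at 25.2, 25.0 and 23.4 CPM in CTR, 42.7, 40.3 and 41.3 in CX3 and 12.1, 12.3 and 9.44 in DAT. Its log2 fold change was 0.75 in CX3 (SE 0.071, edgeR adjusted p = 2.72e-06) and −1.12 in DAT (SE 0.082, edgeR adjusted p = 4.28e-08), which was the smallest DAT difference among the members. H2-DMb1 stood at 14.9, 13.9 and 14.8 CPM in CTR, 23.1, 21.6 and 20.9 in CX3 and 5.43, 5.68 and 6.06 in DAT. H2-DMb2 was lower throughout, with 3.19, 3.35 and 2.73 CPM in CTR, 6.62, 6.41 and 5.55 in CX3 and 0.960, 1.56 and 0.702 in DAT, where it rested on 35, 31 and 16 reads. For both beta chain genes the order DAT, CTR, CX3 held in every library. In CX3 the log2 fold change was 0.59 for H2-DMb1 (SE 0.064, edgeR adjusted p = 1.02e-05) and 1.00 for H2-DMb2 (SE 0.153, edgeR adjusted p = 0.000231). In DAT it was −1.35 for H2-DMb1 (SE 0.078, edgeR adjusted p = 3.63e-09) and −1.57 for H2-DMb2 (SE 0.211, edgeR adjusted p = 1.85e-05). H2-DMb1 and H2-DMb2 are similar in sequence. Reads that map equally to both fall under multi-mapping reads, which were left out, so the split between the 2 genes is uncertain.

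H2-O, which modulates H2-DM and is known mainly from B cells and some dendritic cells, consists of H2-Oa and H2-Ob. H2-Oa stood at 3.91, 3.65 and 4.43 CPM in CTR, 8.18, 7.97 and 7.29 in CX3 and 0.713, 0.754 and 0.527 in DAT. The DAT values rested on 26, 15 and 12 reads, above the 3 reads taken as the detection floor. H2-Oa had a log2 fold change of 0.97 in CX3 (SE 0.108, edgeR adjusted p = 1.42e-05) and −2.57 in DAT (SE 0.170, edgeR adjusted p = 1.35e-08). H2-Ob stood at 5.71, 5.44 and 5.67 CPM in CTR, 8.33, 6.96 and 7.40 in CX3 and 1.78, 1.61 and 2.06 in DAT. Its log2 fold change of 0.43 in CX3 (SE 0.10, edgeR adjusted p = 0.00477) was the smallest CX3 difference among the members. In DAT it was −1.62 (SE 0.129, edgeR adjusted p = 9.52e-08).

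**Figure D2:**
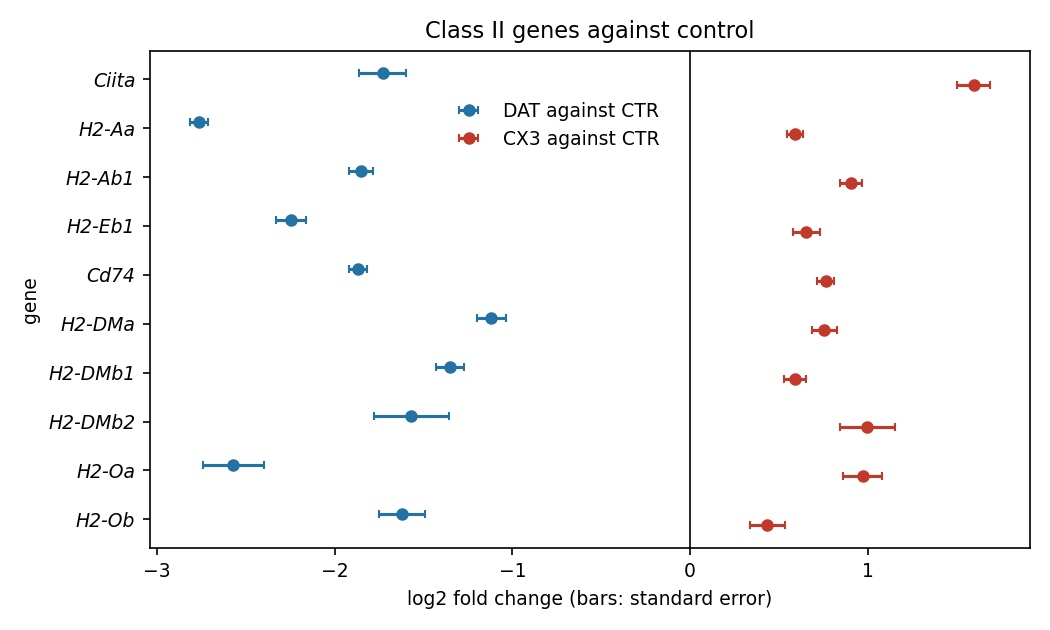
Log2 fold change of each class II gene against CTR, with DAT in blue and CX3 in red, and bars for the standard error of the edgeR fit over all 9 libraries. The 10 CX3 values lie between 0.43 and 1.59 and the 10 DAT values between −2.76 and −1.12, on opposite sides of 0.

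In CX3 against CTR, 10 of 10 members were called higher at an adjusted p under 0.05, and 14.0% of the 20892 genes tested were. In all 10 the 3 CX3 libraries lay above the 3 CTR libraries, as they did in 23.9% of genes. The members' median log2 fold change was 0.76, where that of all genes tested was −0.0033, with 2923 genes called higher and 3444 lower. When a change of more than 1.5-fold was required, 4 members stayed called, namely Ciita, Cd74, H2-Ab1 and H2-Oa, and 0.828% of the genes tested were called higher.

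In DAT against CTR, 10 of 10 members were called lower, and 27.9% of the 20892 genes were. The 3 DAT libraries lay below the 3 CTR libraries in all 10, as they did in 30.6% of genes. The members' median was −1.79 and that of all genes −0.0038, with 6686 genes called higher and 5834 lower. With scaling by library size alone, all genes shifted by a median of −0.15 and 37.8% of called genes were higher in place of 53.4%, while all 10 members were still called lower. All 10 were also called lower when a fold over 1.5 was required, as were 10.7% of genes.

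CX3 against DAT compares the same vector under different Cre drivers, and shares its libraries with the comparisons above. All 10 members were called higher in CX3, as were 27.6% of all genes, and the libraries did not overlap in any of the 10, as in 28.8% of genes. The log2 differences ran from 1.87 in H2-DMa to 3.54 in H2-Oa, with a median of 2.69 and a median of 0.010 over all genes. H2-Oa thus stood 11.6-fold and H2-Aa 10.2-fold higher in CX3 than in DAT. Cd74 stood 6.19-fold and H2-Ab1 6.76-fold higher. All 10 members were called higher when a fold over 1.5 was required, as were 9.93% of genes.

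Levels were compared between genes per kilobase of exon that no other gene shares, since reads in shared bases were not counted. In CTR, Cd74 came first at 182 ± 3.24 CPM per kb (SD, n = 3), followed by H2-Eb1 at 96.8 ± 2.98, H2-Aa at 66.4 ± 0.585 and H2-Ab1 at 53.3 ± 1.88. The H2-DM and H2-O genes and Ciita lay far below, from 8.65 ± 0.329 for H2-DMb1 to 0.714 ± 0.0321 for Ciita, which was lowest in CTR and DAT, while H2-Ob was lowest in CX3. In CX3, H2-Aa at 99.9 ± 3.21 and H2-Ab1 at 99.7 ± 4.19 CPM per kb did not differ beyond their spread. In DAT that pair stood in the opposite order from CTR, with 14.8 ± 1.64 for H2-Ab1 and 9.78 ± 0.554 for H2-Aa. H2-DMa and H2-DMb1 did not differ beyond their spread in CX3, where H2-DMa stood at 13.4 ± 0.399, or in DAT, at 3.65 ± 0.517 and 3.40 ± 0.187. In DAT the same held for H2-DMb2 and H2-Oa, at 0.615 ± 0.252 and 0.612 ± 0.112.

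In these libraries several ratios between members differed between the groups. The ratio of H2-Aa to H2-Ab1 per kb was 1.25 ± 0.0336 in CTR, 1.00 ± 0.0102 in CX3 and 0.663 ± 0.0481 in DAT (SD, n = 3), with no overlap between groups. The ratio of Cd74 to the 3 chain genes summed was 0.526 ± 0.0102 in CTR, 0.552 ± 0.00940 in CX3 and 0.726 ± 0.0488 in DAT, again with no overlap. H2-O over H2-DM was 0.228 ± 0.0163 in CTR and 0.221 ± 0.00598 in CX3, which overlapped, and 0.139 ± 0.0198 in DAT, below both. The 3 chains and Cd74 summed were 134 ± 6.42 times Ciita in CTR and 73.6 ± 10.5 times in CX3, so that Ciita was higher relative to these genes in CX3. In DAT that ratio was 104 ± 22.5 and overlapped CTR. Of the 24 ratio comparisons, 19 did not overlap, and how often ratios of other genes do so was not counted. The smallest exact two-sided permutation p that 3 against 3 libraries allow is 0.1. The smallest Benjamini-Hochberg adjusted value was 0.126, so none could pass 0.05 and these ratios are a description only.

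The class II promoter factors, a list of 7 subunits of RFX, NF-Y and CREB that Ciita docks on, moved little. In CX3 1 was called higher (Rfxank, log2 fold change 0.29) and 2 lower (Nfya lowest, −0.31), and the list median was 0.05. In DAT 1 was called higher and 2 lower, with a median of −0.05. Of 8 interferon-gamma pathway genes, 5 were called higher and 2 lower in CX3, and 1 higher and 5 lower in DAT. Ifng itself, the cytokine, had 11, 13 and 8 reads in CTR, 46, 39 and 41 in CX3 and 2, 4 and 1 in DAT. Its log2 fold change of 1.76 in CX3 and that of −1.85 in DAT passed the test, but the DAT libraries lay about the floor of 3 reads, so the size of that change is not given by these counts. Its receptor chain Ifngr1 was lower in both, at −0.54 and −0.68. Irf1, an interferon-induced activator named after its values were seen, was higher in CX3 by 0.87 and lower in DAT, at −1.47.

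Among 9 genes of antigen processing and class II turnover, none was called higher in either group, 6 were called lower in CX3 and 8 in DAT. The lysosomal protease Ctsd had −0.69 in CX3, and March8, a ubiquitin ligase for class II, had 0.03 and was not called. Of 6 costimulation and checkpoint ligands, 3 were called higher and 1 lower in CX3, and 6 lower in DAT. Pdcd1lg2, which encodes PD-L2, had the highest CX3 log2 fold change, 1.14, and Icosl the lowest, −0.32. Pdcd1lg2 stood at only 0.381 CPM in CTR, 0.851 in CX3 and 0.154 in DAT, the last about the floor of 3 reads. In the class I list of 10 genes, 5 were called higher and none lower in CX3, from −0.09 for B2m, which was not called, to 0.57 for the immunoproteasome subunit Psmb9. All 10 were called lower in DAT. The 3 class II chains and Cd74 summed were 0.277 ± 0.00433 of H2-K1, H2-D1 and B2m summed in CTR, 0.479 ± 0.0189 in CX3 and 0.171 ± 0.00228 in DAT (SD, n = 3), with no overlap.

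Markers of the cells that can carry class II were counted beside these results, and their part in them was not tested. Of 8 microglia markers, none was called higher, 6 were called lower in CX3 and 7 in DAT. Their summed level was 751 to 758 CPM in CTR, 509 to 522 in CX3 and 516 to 534 in DAT. The lowest CX3 value was that of Cx3cr1, at −1.20, the gene whose locus holds Cre in CTR and CX3, and the highest was Sall1, at 0.07 and not called. The 3 chains and Cd74 summed were 1.17 ± 0.0273 times the microglia markers in CTR, 2.81 ± 0.161 times in CX3 and 0.379 ± 0.0339 times in DAT, without overlap. Of 5 broader myeloid markers, 4 were called lower in CX3, from Cd68 at −0.80 to Aif1 at −0.02, not called, and 5 in DAT. Their sum was 223 to 232 CPM in CTR, 175 to 182 in CX3 and 75.6 to 79.3 in DAT. Against the leukocyte gene Ptprc, the 3 chains and Cd74 stood at 13.7 ± 0.535 in CTR, 25.9 ± 2.17 in CX3 and 11.2 ± 2.24 in DAT, and here DAT and CTR overlapped.

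Of 9 dendritic cell markers, 4 were called higher and 1 lower in CX3, and 5 lower in DAT. Xcr1, a chemokine receptor of cross-presenting dendritic cells, had the highest CX3 log2 fold change at 2.04, with −1.67 in DAT, and Ccr7 the lowest at −0.71. The mean DAT level of Xcr1 lay above the floor of 3 reads by less than its SD, so the size of its DAT change is uncertain. The summed level of the list was 54.9 to 57.6 CPM in CTR, 61.8 to 65.2 in CX3 and 38.4 to 40.4 in DAT. Without Flt3, the most abundant of them, it was 36.6 to 38.0, 43.6 to 45.8 and 19.7 to 20.6 CPM. Clec9a, a receptor of the same cells as Xcr1 and also named after its values were seen, had a log2 fold change of 1.58 in CX3 and −0.83 in DAT. Flt3, Zbtb46, Itgax and Cd209a were not called in CX3, at −0.02, 0.15, 0.06 and −0.02. Of these, Flt3, Zbtb46 and Cd209a were not called in DAT either. Of 7 B cell markers, none was called higher and 5 lower in CX3, from Fcrla at −2.27 to Pax5 at −0.03, not called, and 1 higher and 5 lower in DAT. Their sum was 22.0 to 24.1 CPM in CTR, 12.5 to 13.3 in CX3 and 16.6 to 21.4 in DAT. Pax5, called higher in DAT by 0.90, carried most of the DAT sum, and without it the list stood at 13.8 to 15.9 CPM in CTR, 4.36 to 4.74 in CX3 and 3.26 to 4.02 in DAT. Of 6 T cell markers, 3 were called lower in CX3, from Cd4 at −0.68 to Cd8a at −0.05, not called, and 6 in DAT, with sums of 46.9 to 47.6, 37.4 to 41.1 and 11.3 to 12.2 CPM in CTR, CX3 and DAT.

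Of 4 monocyte markers, 2 were called higher and 1 lower in CX3, spanning Chil3 at 2.69 and Ly6c2 at −2.17, and 4 lower in DAT, with sums of 50.2 to 50.8 CPM in CTR, up to 30.4 in CX3 and 6.09 to 6.89 in DAT. Ly6c2 carried most of that sum in CTR. Without it, the list stood at 10.8 to 12.1 CPM in CTR, 20.8 to 21.9 in CX3 and 3.76 to 4.48 in DAT. That shorter sum was added after the values were seen and leaves out the marker called lower in CX3. With Ly6c2 kept, the list median log2 fold change was 0.71 in CX3 and −2.79 in DAT. The DAT median rests in part on Chil3, which at 0.0573 CPM lay under the floor of 3 reads, so its size is uncertain. Plac8 was not called in CX3, at 0.06. Ccr2, a chemokine receptor of monocytes named after its values were seen, had a log2 fold change of 1.35 in CX3 and −0.82 in DAT. Of 6 perivascular macrophage markers, 2 were called higher and 1 lower in CX3, from F13a1 at 0.52 to Lyve1 at −0.78, and 4 higher in DAT, with sums of 31.6 to 33.3, 35.1 to 37.9 and 41.3 to 41.7 CPM.

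**Figure D3:**
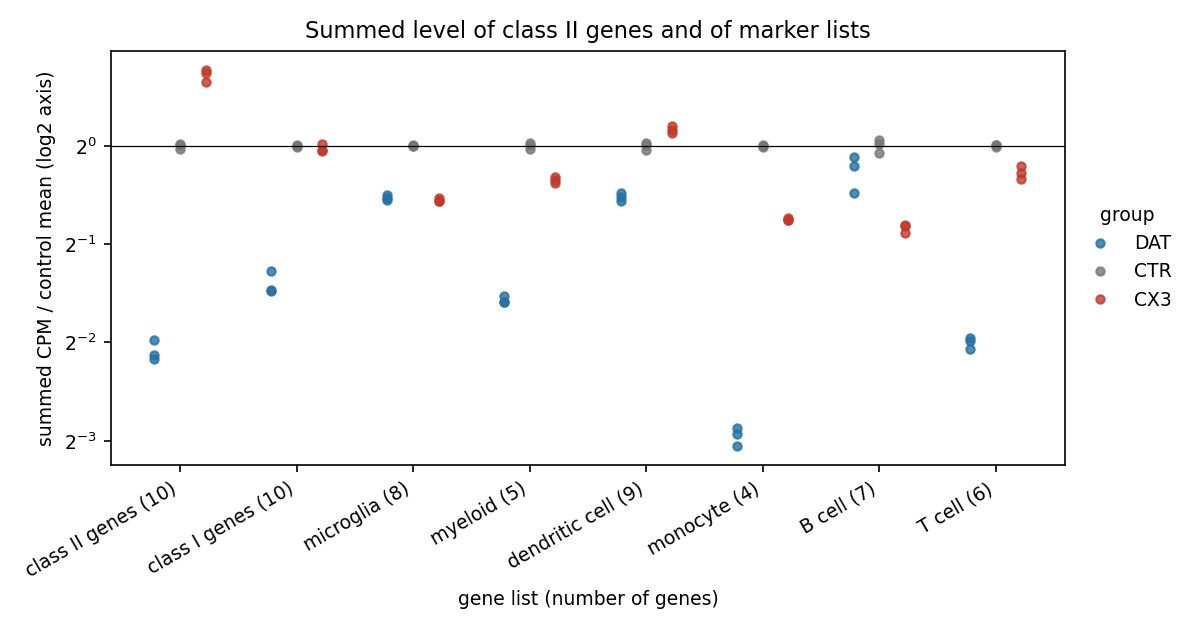
Summed CPM of each gene list divided by its mean in CTR, on a log2 axis, with the list and its number of genes on the x axis and 1 point per library. In CX3 the class II genes lie above the line at 1, the dendritic cell list lies above it by less, and the class I list lies about it. The microglia, myeloid, monocyte, B cell and T cell lists lie below it in CX3. The monocyte list does so through Ly6c2, without which its sum is higher in CX3 than in CTR. The DAT points of the B cell list rest mostly on Pax5.

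Of the markers of other nigral cells, 5 of 6 dopaminergic neuron genes were called higher in CX3, from Nr4a2 at 0.07, not called, to Pitx3 at 0.62, and 1 higher and 3 lower in DAT. The genes called lower in DAT include Slc6a3, at −0.51, whose locus holds Cre in that group. All 4 astrocyte markers were called lower in CX3, from Gfap at −1.0 to Aldh1l1 at −0.62, and 2 in DAT. Of 4 oligodendrocyte markers, 2 were called higher and 1 lower in CX3, with Mbp at 0.14 and Mag at −0.32, and 2 higher and 2 lower in DAT. Of 4 endothelial markers, 2 were called higher in CX3, with Cldn5 at 1.20 and Cdh5 at −0.04, not called, and 4 in DAT. All 4 choroid plexus markers were called higher in both groups, in CX3 from Kl at 1.70 to Ttr at 6.18.

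Strand matters for 3 members that share exon bases with a gene on the opposite strand. The shared part is 22.8% of the exon bases of H2-Oa (with BC051537), 10.4% of H2-DMa (with Brd2) and 3.45% of Ciita (with Dexi). The labels name a stranded kit, but 49.8% to 49.9% of strand-resolved counts fell on the reverse strand in each library, as in an unstranded library. Counts over both strands leave out reads in shared bases, while counts for a single strand assign them, to either gene when the library has no strand. For the 7 other members the forward and reverse counts summed to 1.00 times the count over both strands. For H2-DMa the sum was 1.45 times in CTR, 1.36 in CX3 and 2.44 in DAT, for H2-Oa 2.24, 2.18 and 2.68, and for Ciita 1.22, 1.09 and 1.60. With reverse-strand counts the DAT log2 fold change of H2-DMa was −0.43 in place of −1.12. With forward-strand counts its CX3 against DAT difference was 1.08 in place of 1.87, and that of Ciita 2.74 in place of 3.32. All these kept their direction and passed the test.

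**Figure D4:**
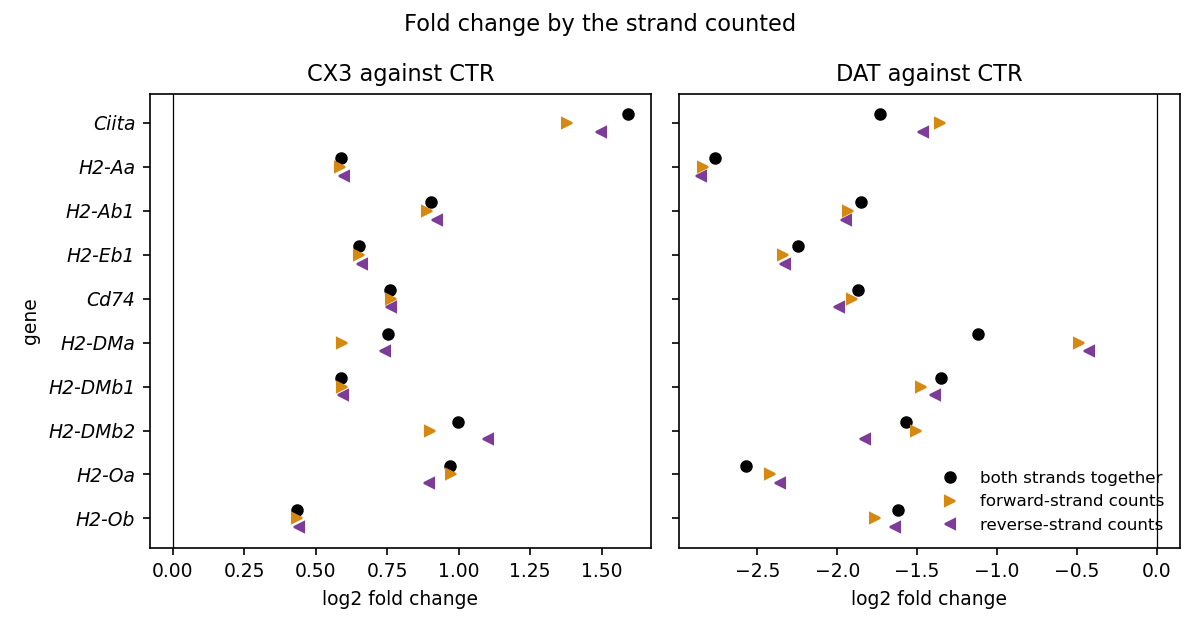
Log2 fold change against CTR of each class II gene from counts over both strands, forward-strand counts and reverse-strand counts, for CX3 on the left and DAT on the right. H2-DMa in DAT moves most, from −1.12 to −0.43 with reverse-strand counts.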

How the data were processed

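The authors deposited raw counts per gene for each library, in the layout of STAR's own gene counting (both strands, forward and reverse). The submitters' notes name Trimmomatic, STAR, featureCounts and DESeq2 and the build mm10. Tool versions are not given in the sources used here. Reads were 76 bases long. Counts over both strands were used, since strand-resolved counts split evenly. Rows that name no gene were left out of library sizes: unmapped reads were 13.8% to 22.0% of reads, multi-mapping 3.36% to 4.54%, without a feature 4.15% to 7.73% and ambiguous 4.34% to 5.67%.

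All 3 groups were fitted together with edgeR 4.0.16 (R 4.3.3): default expression filter, 20892 genes kept, TMM scaling, quasi-likelihood tests and Benjamini-Hochberg adjustment over all genes, called at an adjusted p under 0.05. All 10 members passed the filter. The script was tested on simulated data. A floor of 3 counts equals 0.0779 to 0.151 CPM, for counting error only. Ratios were tested by exact permutation on the log2 scale.

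The members and lists were chosen with earlier results of these data known. All members were to be named, and in each other list the genes with the lowest and highest CX3 against CTR change among those tested. Alternatives were DESeq2 1.42.0, other scalings, filters and strands, 2-group fits, a replicate block, a fold threshold and leaving out each library.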

Additional observations from a re-analysis of the deposited data

Results flagged for a closer look

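All 10 class II genes lay on opposite sides of the shared control, higher in CX3 and lower in DAT, and the difference between the groups was itself tested by edgeR's CX3 against DAT contrast, which all 10 passed. The CX3 minus DAT log2 difference was 3.35 for H2-Aa, 2.76 for H2-Ab1, 2.90 for H2-Eb1, 2.63 for Cd74, 3.32 for Ciita, 1.87 for H2-DMa, 1.94 for H2-DMb1, 2.57 for H2-DMb2, 3.54 for H2-Oa and 2.05 for H2-Ob. The groups differ in Cre line and tamoxifen as well as in the cells in which the insert is switched on, and these cannot be told apart.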

How the results depend on the processing

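Of the member fold changes recomputed under the alternatives, 563 kept their direction and their side of the threshold, 7 kept their direction but missed the threshold, and 0 reversed. With forward-strand counts H2-Ob in CX3 against CTR missed it (log2 fold change 0.43, edgeR adjusted p = 0.0711). The other 6 missed it when a fold over 1.5 was required, which left 4 members called in CX3 against CTR and 529, 3773 and 3780 genes called in CX3 against CTR, DAT against CTR and CX3 against DAT, in place of 6367, 12520 and 12311. With library size alone, 58.9%, 37.8% and 66.7% of called genes were higher, in place of 45.9%, 53.4% and 46.8%, and the median of all genes shifted to −0.15 in DAT against CTR and 0.20 in CX3 against DAT. Deviations from the group mean correlated at −0.51 to 0.41 between same-lettered libraries. The correlations were positive for each pair of C libraries (0.21, 0.23 and 0.41) and mixed in sign for A and for B. Not every library correlated best with its own letter. With 3 libraries per group this does not settle whether the letters pair them, and the main fit assumed no pairing. With a replicate block, 10, 10 and 10 members and 5805, 12144 and 11955 genes were called. Leaving out each library in turn kept all members called. Without DAT B, H2-DMb2 in DAT was −1.85. Depth limits H2-DMb2 and H2-Oa in DAT most, at 12 to 35 reads. Marker sums without each list's most abundant gene were added after seeing the data and are given for the dendritic cell, B cell and monocyte lists.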
